A study of Mus musculus with 5 samples.

Results

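The genes described here are 10 regulators and markers of blood stem and progenitor cells, read in bone marrow-cultured mast cells: Hoxa7, Hoxa9, Hoxa10, Meis1, Mecom, Hlf, Myb, Cd34, Erg and Flt3. They were chosen by name, and each of the 10 matched 1 row among the 25549 gene models of the authors' deposited table. Total RNA was sequenced from 3 samples of C57BL/6 mice carrying Cpa3-Cre;miR-9∆fl/∆fl, called the miR-9 line here, and from 2 samples of C57BL/6 mice carrying Cpa3-Cre alone. Both groups carry Cpa3-Cre, a transgene that makes the Cre recombinase under the promoter of Cpa3, the gene of a mast cell carboxypeptidase, and neither was treated. The labels state that the mice were matched for age and sex but give no age, and they do not say whether recombination of the ∆fl allele adds or removes miR-9. Cells were grown out of bone marrow for 6 to 8 weeks with 50 ng/mL interleukin-3, and the stated depth was about 70000000 paired reads of 50 bases per sample. The comparison, miR-9 line against Cpa3-Cre, is read here for transcripts of the immature blood programme.

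Blood stem and progenitor cells hold their immature state through a small circle of transcription factors. HOXA proteins bind DNA together with MEIS1 and PBX partners, and their genes, with Mecom, Hlf, Erg and Myb, are active in stem and early progenitor cells and are mostly turned down as cells mature. The receptor FLT3 marks progenitors with lymphoid and myeloid potential, and the sialomucin CD34 marks many progenitors but is also carried by mouse mast cells. Mast cells are a myeloid lineage that keeps the stem cell factor receptor KIT through maturity, so cultured mast cells share part of their surface with the progenitors they came from.

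The values are the authors' log2 fold changes, miR-9 line over Cpa3-Cre, which are above 0 for genes higher in the miR-9 line, and the authors' unadjusted p-values. The levels of each gene in each sample were not analysed here, because the names of the 5 columns of values per library match no sample's labels. The number of samples that share a direction, the spread within a group and the overlap of groups are therefore not given. The labels do not tie the samples of a group to separate mice or cultures. The p-values then measure only how these samples vary among themselves, and that variation may be technical. In bulk RNA, fewer cells of a type and less RNA per cell cannot be told apart.

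The 2 mature strands of miR-9 are shown first because the allele that separates the groups concerns this microRNA, and the seed of each strand defines the sites looked for in the 10 genes. RefSeq (GRCm38.p6) gives the same mature sequences at all 3 loci, Mir9-1 on chromosome 3, Mir9-2 on chromosome 13 and Mir9-3 on chromosome 7. Capitals mark the seed, bases 2 to 8 from the 5′ end.
miR-9-5p: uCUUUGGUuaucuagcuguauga
miR-9-3p: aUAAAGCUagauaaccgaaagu

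A microRNA of this kind pairs through its seed with sites in the 3′ UTR of an mRNA, most often lowering the mRNA. The GENCODE M21 3′ UTRs of the 10 genes, the longest of each gene, run from 430 bases in Flt3 to 5687 bases in Meis1. Erg alone of the 10 held ACCAAAG, the 7 bases that pair with the miR-9-5p seed, and it held 3 copies. Of 21037 genes with an annotated 3′ UTR, 12.2 percent held at least 1 copy and 0.304 percent held at least 3. The 3′ UTR of Erg has 1637 bases, where the median over these genes is 960.0, and longer UTRs hold more matches by length alone. The matches lie in the 3′ UTR of Erg on the minus strand of chromosome 16 (GRCm38), and capitals mark the match.
Erg, chr16:95360658-95360664: ggaaaaaaaaACCAAAGactcgcaggg
Erg, chr16:95360338-95360344: ccatgtcaaaACCAAAGaagaagcaga
Erg, chr16:95359751-95359757: gcaccttgggACCAAAGggcatgagtt

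The first 2 of these are followed by an A, which makes the longer 8-base form of the site, present in 4.12 percent of these genes. Matches to the miR-9-3p seed, AGCTTTA, were found in Hoxa10 (2 copies) and Meis1 (1 copy), where 11.3 percent of all genes with a 3′ UTR held at least 1. Both Hoxa10 sites lie on the minus strand of chromosome 6 and the Meis1 site on the minus strand of chromosome 11.
Hoxa10, chr6:52231839-52231845: aagatctcccAGCTTTAaatgaaaatt
Hoxa10, chr6:52231300-52231306: tgttagttctAGCTTTAtttacttcaa
Meis1, chr11:18883521-18883527: aaataaacacAGCTTTActtagggtaa

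The other 7 genes held neither match in any annotated 3′ UTR. These matches are letters in an annotation, and no binding was measured. In the authors' deposited table, Erg, with 3 miR-9-5p matches, stood at 0.30 on the log2 scale, Hoxa10 at -0.38 and Meis1 at -0.31, and none of the 3 passed the test described next. A total RNA library of 50-base reads does not measure the mature microRNA itself. Gm25641, a microRNA-class gene model at the Mir9-1 hairpin, stood at 4.50 on the log2 scale of the authors' deposited table (Benjamini-Hochberg adjusted p = 8.74e-18), on the strand opposite to the hairpin.

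**Figure D1:**
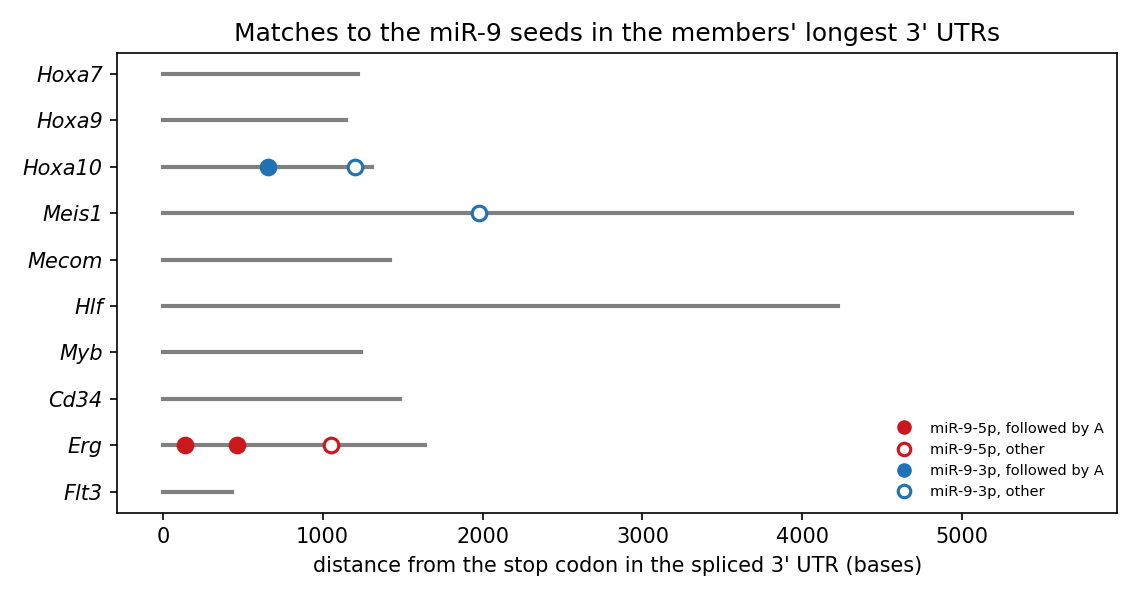
Matches to the miR-9 seeds along the longest annotated 3′ UTR of each of the 10 genes, with distance from the stop codon in bases on the horizontal axis and the UTR as a grey line. Red points are miR-9-5p matches, found in Erg alone (3), and blue points are miR-9-3p matches, found in Hoxa10 (2) and Meis1 (1); filled points are followed by an A.

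None of the 9 genes with a p-value passed the test in the miR-9 line, and Hoxa9 had no p-value. A gene is called here at a Benjamini-Hochberg adjusted p under 0.05, adjusted over the 24071 rows of the authors' deposited table that have a p-value, and 0.411 percent of those rows were called. Shares of all rows below refer to these 24071. The p-value is given for 9 of the 10 genes; the smallest adjusted p among them was 0.698, and 0 of the 9 had an unadjusted p under 0.05, where 7.92 percent of all rows did. Split by direction, 0.245 percent of all rows were called higher and 0.166 percent lower, and 3.87 percent had an unadjusted p under 0.05 and were higher, 4.05 percent lower. With 9 genes, counts of 0 do not stand apart from these shares. Of the 9 genes, 3 had positive values and 6 negative, where 40.2 percent of all rows were positive and 59.8 percent negative. Their median log2 fold change was -0.31, computed from the authors' deposited table, against -0.09 over all rows with a p-value. The values ran from -0.87 for Mecom to 0.39 for Myb.

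The errors of the fold changes were not part of the table. If the authors' p-values came from a two-sided Wald test on the log2 scale, the default of the DESeq2 software named in the design text, each p-value and fold change together imply a standard error and a 95% interval. A one-way ANOVA is also named there, so these intervals are approximate. They are given for each gene because a p-value that misses the threshold does not show that a gene was the same in both genotypes.

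**Figure D2:**
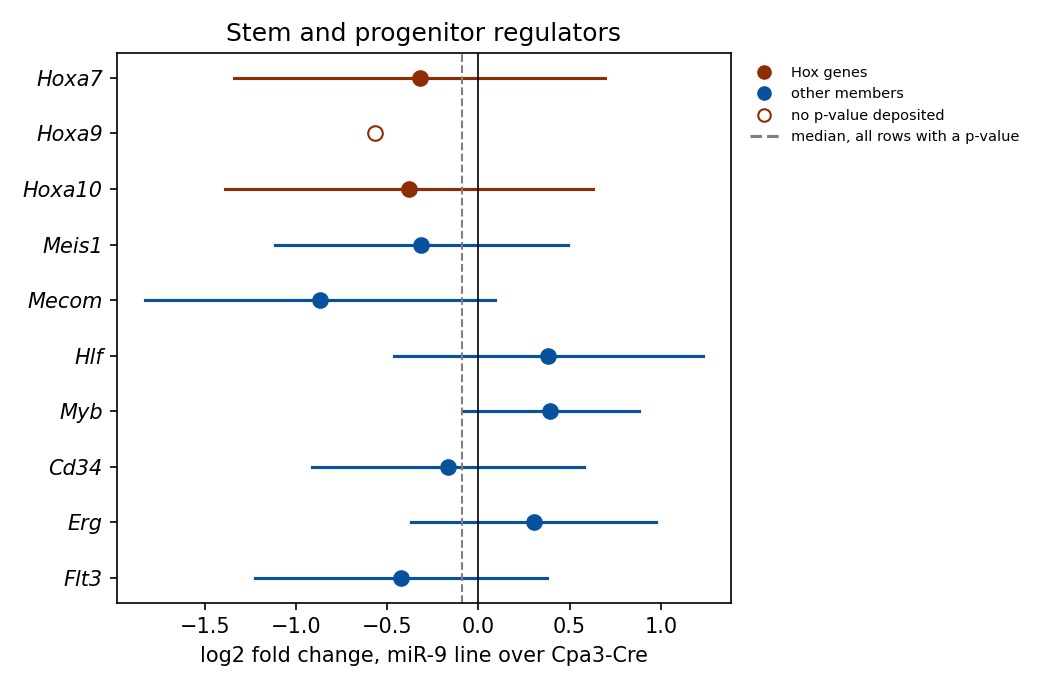
Log2 fold change, miR-9 line over Cpa3-Cre, for the 10 genes in the authors' deposited table (points) with the 95% interval implied by the deposited p-value if it came from a Wald test (lines). Each of the 9 intervals spans 0, Mecom is lowest at -0.87, Hlf, Myb and Erg are above 0, and Hoxa9 (open point) has no p-value; the dashed line is the median of all rows, -0.09.

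The HOXA genes come first by role. Hoxa7, Hoxa9 and Hoxa10 encode homeodomain transcription factors that hold progenitors in a self-renewing state and are kept high in many leukaemias. They lie side by side on the minus strand of chromosome 6 (GRCm38), Hoxa7 from 52214491 to 52221854, Hoxa9 from 52223097 to 52231089 and Hoxa10 from 52231197 to 52240854. All 3 had negative values in the authors' deposited table. Hoxa7 stood at -0.32 on the log2 scale of the authors' deposited table, 1.25-fold lower in the miR-9 line (p = 0.535), with an implied interval from -1.34 to 0.69.

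Hoxa10 stood at -0.38 on the log2 scale of the authors' deposited table, 1.30-fold lower (p = 0.462), with an implied interval from -1.39 to 0.63. Hoxa9 stood lowest of the 3 at -0.57 on the log2 scale of the authors' deposited table, 1.48-fold lower, and is among the 1478 rows with no p-value, 5.78 percent of the table, so it has no test. Among all rows with a p-value, 14.8 percent had a lower log2 fold change than Hoxa9 and 29.3 percent a lower one than Hoxa7. No other gene model of the table lies between Hoxa7 and Hoxa10, and no exon of the 3 is shared with another row. The Hoxa9 and Hoxa10 models are 107 bases apart. The Hoxa9 model has 4 exons, and the second from its 5′ end covers the Mir196b hairpin (52230081 to 52230165), which has no row of its own, so reads of its primary transcript and of Hoxa9 could be counted together.

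Meis1, the partner that stabilises HOXA proteins on DNA, stood at -0.31 on the log2 scale of the authors' deposited table, 1.24-fold lower in the miR-9 line (p = 0.444), with an implied interval from -1.12 to 0.49. The model has 13 exons on the minus strand of chromosome 11, from 18880428 to 19018969. Gm16140 and Gm16141, antisense models inside it, stood at -0.59 (p = 0.216) and -0.61 (p = 0.162) on the log2 scale of the authors' deposited table. Gm16140 shares 896 exon bases with Meis1 and Gm16141 shares none. Strand use in counting was not given in the sources used here, and without it reads in the stretch shared by Meis1 and Gm16140, out of a Meis1 model of 9475 bases, cannot be assigned to 1 of the 2 genes.

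Mecom had the lowest value of the 10 genes and, with Myb, the smallest p-values. It encodes EVI1 and its longer form with the MDS1 domain, zinc finger factors needed by long-term stem cells. Mecom stood at -0.87 on the log2 scale of the authors' deposited table, 1.83-fold lower in the miR-9 line (p = 0.0756, adjusted p = 0.698), with an implied interval from -1.83 to 0.09. A lower value was found in 5.02 percent of all rows, and 2604 rows had a smaller p-value. The row sums 24 exons on chromosome 3 from 29951299 to 30548008, and RefSeq has 2 start sites in it, so the long and short forms are not separated. Gm16722, on the opposite strand, shares 81 exon bases with it and stood at -0.36 on the log2 scale of the authors' deposited table (p = 0.419).

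Prdm16, the nearest relative of Mecom and also a stem cell factor, stood lower still, at -1.07 on the log2 scale of the authors' deposited table (p = 0.0481), and with an adjusted p of 0.624 it was not called either. Whether the values of Mecom and Prdm16 differ was not tested.

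Hlf, Myb and Erg were the 3 genes with positive values. Hlf, a bZIP factor of the PAR family that marks stem cells, stood at 0.38 on the log2 scale of the authors' deposited table, 1.30-fold higher in the miR-9 line (p = 0.375), with an implied interval from -0.46 to 1.23. The clock-controlled relatives Dbp and Tef stood at 0.21 (p = 0.464) and -0.03 (p = 0.921) on the log2 scale of the authors' deposited table, and the related repressor gene Nfil3, at -0.04, had no p-value.

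Myb, which keeps progenitors dividing and is turned down in most maturing blood cells, stood at 0.39 on the log2 scale of the authors' deposited table, 1.31-fold higher in the miR-9 line (p = 0.112, adjusted p = 0.746). Its implied interval, from -0.09 to 0.88, was the narrowest of the 9, with a standard error of 0.25, and 90.7 percent of all rows had a lower log2 fold change. The antisense model Gm26577 shares 259 exon bases with Myb and stood at 0.31 on the log2 scale of the authors' deposited table (p = 0.507). Of the other MYB family genes, Mybl2, which acts in dividing cells of many kinds, stood at 1.22 on the log2 scale of the authors' deposited table, 2.33-fold higher with p = 0.000305 and an adjusted p of 0.0612, and Mybl1 at 0.44 (p = 0.248). Mybl2 missed the threshold over all rows and passed when the adjustment was made over protein-coding genes only.

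Erg, an ETS factor of stem cells and endothelium, stood at 0.30 on the log2 scale of the authors' deposited table, 1.23-fold higher in the miR-9 line (p = 0.376), with an implied interval from -0.37 to 0.98. Its row sums transcripts from 3 RefSeq start sites. Fli1, its closest relative, stood at -0.13 on the log2 scale of the authors' deposited table (p = 0.544). Across 21 further ETS genes with a p-value, 7 had positive and 14 negative values (median -0.14), and none was called. In the lower direction 3 of these 21 (14.3 percent) had an unadjusted p under 0.05, against 4.05 percent of all rows, and in the higher direction none. The ETS genes Etv6 and Spi1 are not among the 21, because they were listed with other stem and progenitor transcription factors. On the log2 scale of the authors' deposited table Etv6 stood at 0.39, with an unadjusted p of 0.0474, and Spi1 at 0.09 (p = 0.837). The 3 lower genes were Etv1 at -1.17, the epithelial factor gene Elf3 at -1.02 and the lymphoid factor gene Spib at -1.05 on the log2 scale of the authors' deposited table, with unadjusted p-values of 0.0253, 0.0334 and 0.0403.

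The surface molecules Cd34 and Flt3 both had negative values. Cd34 had the value nearest to 0 of the 10 genes, -0.17 on the log2 scale of the authors' deposited table, 1.12-fold lower in the miR-9 line (p = 0.661), with an implied interval from -0.91 to 0.58. The antisense model Gm16897 shares 148 exon bases with Cd34 and stood at -0.57 on the log2 scale of the authors' deposited table (p = 0.139). The CD34 relatives Podxl and Podxl2 stood at -0.14 (p = 0.748) and -0.44 (p = 0.416) on the log2 scale of the authors' deposited table.

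Flt3, the receptor tyrosine kinase of multipotent progenitors, stood at -0.42 on the log2 scale of the authors' deposited table, 1.34-fold lower in the miR-9 line (p = 0.300), with an implied interval from -1.23 to 0.38. Kit, the related receptor that mast cells depend on, stood at -0.04 on the log2 scale of the authors' deposited table (p = 0.910). Among 15 genes with a p-value that encode the FLT3 ligand and signal transducers below the receptor, 8 had positive and 7 negative values, the median was 0.02, and none had an unadjusted p under 0.05. The smallest p-values of these 15 belonged to the adaptor gene Grb2, at 0.40 (p = 0.0674), the kinase gene Pim1, at -0.35 (p = 0.224), and the kinase subunit gene Pik3r1, at -0.30 on the log2 scale of the authors' deposited table (p = 0.234).

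The 25 Hox cluster genes besides Hoxa7, Hoxa9 and Hoxa10 were all negative in the authors' deposited table. Their median was -0.65, none was called, and 6 (24.0 percent) had an unadjusted p under 0.05 in the lower direction, against 4.05 percent of all rows. Of these 6, 5 belong to the HoxC cluster on chromosome 15: Hoxc5 stood at -1.90, Hoxc6 at -1.88, Hoxc8 at -1.57, Hoxc9 at -1.51 and Hoxc4 at -1.46 on the log2 scale of the authors' deposited table. Hoxc5 and Hoxc6 came nearest to the threshold, with Benjamini-Hochberg adjusted p-values of 0.0711 and 0.0750 from the authors' deposited table. The sixth HoxC row, Hoxc13, stood at -0.11 on the log2 scale of the authors' deposited table (p = 0.814). The exons of Hoxc5 share no base with those of Hoxc6, Hoxc8 or Hoxc9, although its model spans them.

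In the HoxA cluster the other 4 rows with a p-value were Hoxa3 (-0.84), Hoxa2 (-0.70), Hoxa13 (-0.33) and Hoxa5 (-0.18) on the log2 scale of the authors' deposited table, with unadjusted p-values from 0.0928 for Hoxa2 to 0.723 for Hoxa5. Hoxa2 and Hoxa3 share 267 exon bases. Hoxa4, Hoxa6, Hoxa11 and the neighbouring homeobox gene Evx1 match no row by symbol and were not analysed here. In the HoxB cluster all 10 rows were negative (median -0.61), from Hoxb2 at -1.08 (p = 0.0445) to Hoxb1 at -0.17 on the log2 scale of the authors' deposited table. The paralogs Hoxb4, Hoxb7 and Hoxb9 had log2 fold changes of -0.57, -0.77 and -0.55, with p-values of 0.174, 0.152 and 0.243, in the authors' deposited table. The antisense model Hoxb3os shares 1140 exon bases with Hoxb3, at -0.55 (p = 0.270), and 957 with Hoxb2, and itself stood at -1.27 on the log2 scale of the authors' deposited table (p = 0.00890). The log2 fold changes of the 5 HoxD rows ran from -0.69 for Hoxd3 to -0.14 for Hoxd1 in the authors' deposited table (median -0.52).

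**Figure D3:**
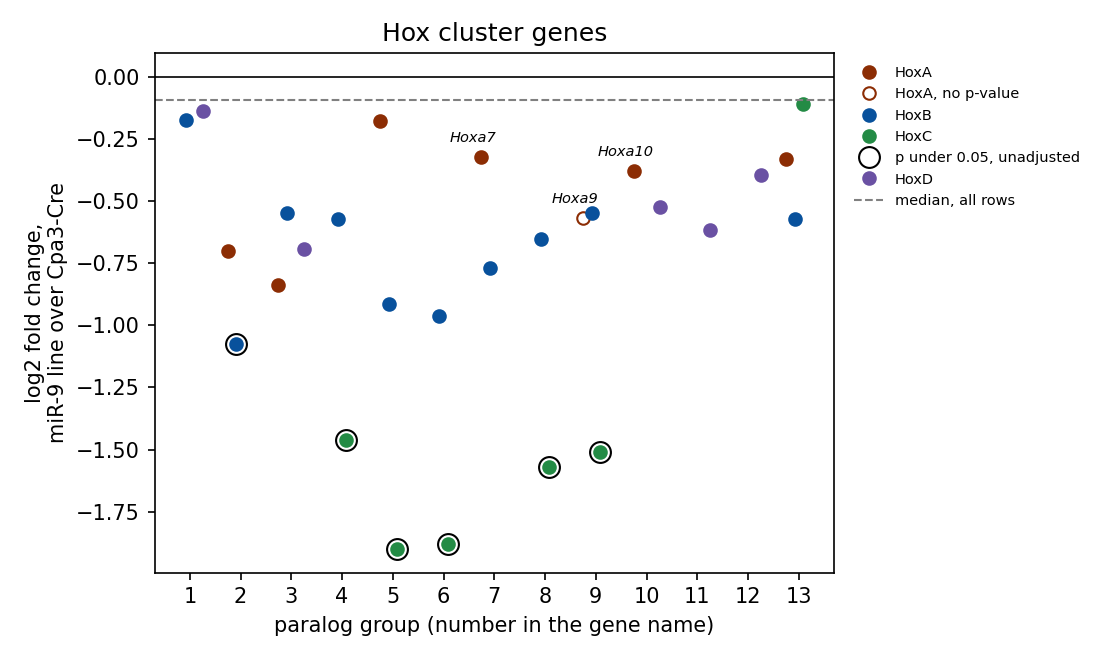
Log2 fold change, miR-9 line over Cpa3-Cre, in the authors' deposited table for the 28 Hox cluster genes, by paralog group (horizontal axis) and cluster (colour). All 28 points lie below 0, rings mark the 6 with an unadjusted p under 0.05, 5 of them HoxC genes between -1.90 and -1.46, and Hoxa9 (open point) has no p-value.

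Negative values were also common in gene families of other tissues. These families were chosen after the values were seen, as genes best known from sensory neurons, epithelium and the embryo. Of 234 olfactory receptor genes with a p-value 207 (88.5 percent) were negative, with a median of -0.36 computed from the authors' deposited table. Of 98 vomeronasal receptor genes 93 (94.9 percent) were negative (median -0.50), and of 32 keratin genes 30 (93.8 percent; median -0.58). Of 58 homeobox and paired box genes outside the Hox clusters 51 (87.9 percent) were negative (median -0.49). An unadjusted p under 0.05 in the lower direction was found for 7 olfactory receptor genes (2.99 percent), 8 vomeronasal receptor genes (8.16 percent), 2 keratin genes (6.25 percent) and 10 of these homeobox and paired box genes (17.2 percent), where 4.05 percent of all rows had one. In the higher direction it was found for 1 homeobox or paired box gene and for 0 genes of the other 3 families, where the share of all rows was 3.87 percent. The median of all 27 Hox genes with a p-value was -0.62, with 27 of 27 negative. How far the direction of the Hox genes moves with that of genes of other tissues was not tested.

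**Figure D4:**
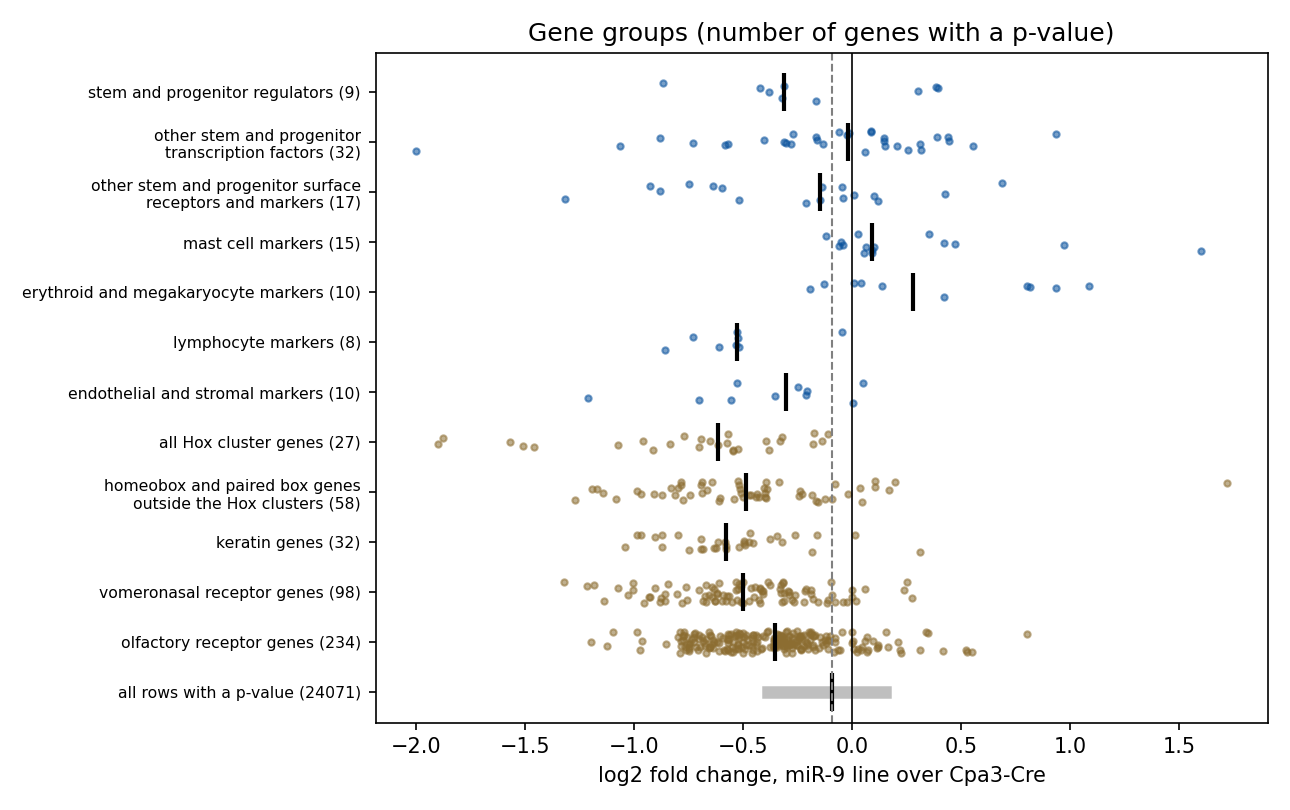
Log2 fold change, miR-9 line over Cpa3-Cre, in the authors' deposited table for genes with a p-value, by group; points are genes, black ticks are medians and the grey bar is the interquartile range of all rows. The 9 stem and progenitor regulators have a median of -0.31, the Hox genes of -0.62 and the families of other tissues between -0.58 and -0.36, while mast cell markers have a median of 0.09.

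The cofactors and chromatin regulators that work with HOXA proteins had values on both sides of 0. Of 9 other TALE homeobox genes with a p-value 3 were positive and none was called (median -0.07). Pbx3 (-0.10, p = 0.703), which encodes a partner of HOXA proteins, and Meis2 (0.20, p = 0.544), a relative of Meis1, stood near 0 in the authors' deposited table. The smallest p-values of the list were those of Tgif2 at -0.86 (p = 0.0332), Pbx4 at 0.66 (p = 0.142) and Pknox1 at 0.22 (p = 0.288) on the log2 scale of the authors' deposited table.

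Among 27 chromatin regulators of Hox genes, such as the MLL and Polycomb complexes, 12 were positive and 15 negative (median -0.03). Of all rows, 3.87 percent were higher at an unadjusted p under 0.05 and 4.05 percent lower. Among these 27 genes 4 reached it, 1 higher and 3 (11.1 percent) lower, and none was called. The 1 higher was the Polycomb gene Ezh2, at 0.61 on the log2 scale of the authors' deposited table (p = 0.0464). The 3 with the smallest p-values were the Polycomb genes Cbx7, at -0.91 (p = 0.0151), and Ezh1, at -0.43 (p = 0.0210), and the elongation factor gene Aff4, at -0.41 on the log2 scale of the authors' deposited table (p = 0.0461).

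Other transcription factors of stem and progenitor cells were divided in direction, with 15 positive and 17 negative values among 32 genes with a p-value (median -0.02). Gfi1, a repressor that restrains progenitor division, was the 1 called gene and shares 101 exon bases with A430072P03Rik, a model on the opposite strand that was also called lower, at -1.69 on the log2 scale of the authors' deposited table (adjusted p = 0.0245). Gfi1 stood at -2.00 on the log2 scale of the authors' deposited table, 4.00-fold lower, with an adjusted p of 1.91e-06. The retinoic acid receptor gene Rarg, at -0.58 (p = 0.000957, adjusted p = 0.0993), and Myc, at 0.55 (p = 0.0122, adjusted p = 0.376), came next in the authors' deposited table. Of the 30 surface receptors and markers, 17 had a p-value and 13 had none, where 5.78 percent of all 25549 rows had none. The 17 had 5 positive and 12 negative values (median -0.14), and none was called. The smallest p-values of that list were those of Tie1, a receptor of endothelium and stem cells, at -1.32 (p = 0.00467), Ly6a, which encodes the stem cell antigen SCA-1, at -0.88 (p = 0.0371), and the stem cell marker gene Fgd5, at -0.93 on the log2 scale of the authors' deposited table (p = 0.0854).

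Markers of other cells were read beside these genes. All 15 mast cell markers had a p-value, 11 with positive values (median 0.09), and Tpsb2, a tryptase gene that may share reads with its close relative Tpsab1, was the 1 called, at 1.60 on the log2 scale of the authors' deposited table (adjusted p = 0.0149). None of 10 markers of granulocyte-monocyte progenitors and neutrophils, Mpo, Elane, Prtn3 and Ctsg among them, had a p-value. The same held for 7 of the 8 monocyte and macrophage markers with a row, while 5.78 percent of all 25549 rows had no p-value. Mpo, Elane, Prtn3, Ctsg, Csf3r and Csf1r are also among the surface receptors and markers above, so their empty p-values are counted again here. All 8 lymphocyte markers with a p-value were negative (median -0.53), as were 8 of 10 endothelial and stromal markers (median -0.30), while 8 of 10 erythroid and megakaryocyte markers were positive (median 0.28); none of these 28 genes was called. An unadjusted p under 0.05 in the higher direction was found for 2 mast cell markers and 1 erythroid and megakaryocyte marker. In the lower direction it was found for 1 endothelial and stromal marker. Lymphocyte markers had 0 in either direction. Of all rows, 3.87 percent reached it higher and 4.05 percent lower, and 40.2 percent were positive and 59.8 percent negative. The lymphocyte median and the endothelial and stromal median lay further below 0 than that of all rows (-0.09), a difference that was not tested. The median of the erythroid and megakaryocyte list was positive, as was that of the mast cell list. The part of these cells in the values of the 10 genes was not tested. An empty p-value is not a level, so the presence of these cells was not measured here.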

How the data were processed

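RNA from 5 samples of bone marrow-cultured mast cells was analysed from 1 table. GRCm38 and mm10 are the builds, and DESeq, DESeq2, Cuffdiff, HTSeq and STAR the tools, per the submitters' processing notes. Not given in the sources used here were their versions and roles, any filters and strand use. The authors deposited a log2 fold change, a signed linear fold on a score scale (2 raised to the size of the log2 value, with its sign, to within 0.001 in 100 percent of rows), a p-value for 24071 of 25549 rows and, among other columns, the gene length. The 5 columns of values per library were not used, since their names match no sample's labels. No test of expression was therefore run here, and edgeR, leave-one-out fits and depth per library were not computed.

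Benjamini-Hochberg adjustment over all deposited p-values used statsmodels 0.14.6; it and the implied standard errors were tested on simulated data. Symbol and chromosome matched 23683 rows to GENCODE M21 (GRCm38). 3′ UTRs began after the stop codon of protein-coding transcripts. The 10 genes and 17 other lists were chosen with earlier results of these data known. Named genes were the 10, the genes of the HoxA cluster, fixed relatives, overlapping gene models, and from each progenitor, cofactor, chromatin, ETS and signalling list the called genes and the 3 smallest p-values. The other Hox genes and cell markers named, and Etv6, Spi1 and Ezh2, were chosen after their values were seen. Some genes that this rule names are not reported here. Python 3.11.15, numpy 2.4.6, pandas 2.3.3, scipy 1.17.1 and matplotlib 3.10.9 were used.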

Additional observations from a re-analysis of the deposited data

How the results depend on the processing

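None of the 10 genes was called under any of the 7 other call rules tried (Benjamini-Yekutieli, Bonferroni, unadjusted p under 0.0001, adjusted p under 0.10, protein-coding genes only, empty p-values entered as 1, and symbols in 1 row only). Of the 24071 rows with a p-value, these rules called from 20 (Bonferroni) to 233 (adjusted p under 0.10). A count of 0 among 9 genes does not stand apart from that, and Hoxa9, without a p-value, could not be called. The median log2 fold change of the 9 genes with a p-value, -0.31, was -0.32 with Hoxa9 included and -0.22 with the median of all rows subtracted; 3 genes were positive in each case. At an adjusted p under 0.10, 2 genes of the HoxB, HoxC and HoxD list (Hoxc5 and Hoxc6), 2 other stem and progenitor transcription factors (Gfi1 and Rarg) and 1 MYB family gene (Mybl2) passed, and Mybl2 (1 gene) also passed among protein-coding genes only. The mast cell marker Tpsb2 was lost by Benjamini-Yekutieli and by Bonferroni adjustment, which left 0 called markers. The other 113 of 119 counts over the 17 lists did not move. With the 8-base site, miR-9-3p matches were found in 1 gene, Hoxa10, in place of 2; any annotated 3′ UTR gave the same genes as the longest. No paired analysis was possible because the columns of values per library carry no sample name. For the same reason the planned edgeR and DESeq2 fits, the filter on low counts and leaving out a replicate were not run. If the authors' fold changes were shrunken towards 0, the folds of scarce genes are too small.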
